A study of Rattus norvegicus with 12 samples.

Results

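The secreted Wnt antagonists followed here are 7 genes, Dkk1, Dkk3, Sfrp1, Sfrp2, Sfrp4, Frzb and Wif1, out of 16633 genes measured in rat XEN cells. They were chosen by name, as the genes whose symbol in the platform's probe annotation is one of these 7, and all 7 were found, with 47 probe sets among the 211195 of the table. Rat XEN cells, here of the Fisher strain, are a cultured line of extraembryonic endoderm stem cells. They can resemble parietal endoderm, whose motile cells secrete basement membrane, or the absorptive visceral endoderm. RNA of 12 samples in 4 groups of 3 was hybridised to 1 Affymetrix array each, and the series asks how Wnt/beta-catenin and adenylate cyclase signalling steer the cells. Neither compound was given to control cells. The CHIR group had CHIR99021, which inhibits the kinase GSK3, at 3 µM for 2 days, and the forskolin group had 10 µM forskolin, which activates adenylate cyclase, over 1 day. The combined group had 3 µM CHIR99021 for 2 days and 10 µM forskolin as well for the last of them. All 4 groups were kept in 10% serum at first and in 0.1% serum for the last 1 day. The compounds act on a cultured line, and no source used here says whether the 3 samples of a group were separate cultures, so the p-values reflect sample-to-sample spread that could be technical.

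Wnt proteins bind Frizzled receptors together with the co-receptors Lrp5 and Lrp6, and this stops GSK3 from marking beta-catenin for breakdown. Secreted antagonists act outside the cell, ahead of that step. The secreted Frizzled-related proteins, encoded by Sfrp1, Sfrp2, Sfrp4 and Frzb, and the Wnt inhibitory factor encoded by Wif1 bind Wnt proteins themselves, whereas the Dickkopf protein Dkk1 binds Lrp5 and Lrp6. Dkk3 is a divergent Dickkopf whose action on Wnt signalling is less settled. CHIR99021 inhibits GSK3 inside the cell, beyond the point at which these proteins act, and Dkk1 is known as a target of beta-catenin in several tissues.

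Each value is a log2 signal, the median over a gene's probe sets, and levels of different genes are not compared. A background reference of 6.43 was taken from the 95th percentile of 1095 olfactory receptor genes, whose median was 5.75. Array medians lay between 7.76 and 7.86, and arrays correlated at 0.985 to 0.991 within groups and 0.958 to 0.984 between groups, across probe sets. Axin2, a feedback gene of the pathway, rose from 5.75 ± 0.15 in control to 8.64 ± 0.08 with CHIR (SD, n = 3). Crem, a cAMP-responsive gene, rose from 8.73 ± 0.15 to 10.18 ± 0.15 with forskolin. All 7 measured core markers of extraembryonic endoderm (Gata4, Gata6, Sox7, Sox17, Dab2, Pdgfra and Foxa2) lay above the reference in every group, as did all 12 parietal markers. Of the visceral markers, Afp lay at or below it in every group, Ttr in all but the forskolin group and Ihh in all but the CHIR group.

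Among the 7 antagonists, Sfrp1 moved furthest, Dkk1 responded to forskolin in opposite directions with and without CHIR, Dkk3 was modestly lower and Wif1 modestly higher where CHIR was present, and Sfrp2, Sfrp4 and Frzb stayed below the background reference in all groups. Against control, 3 antagonists fell and 1 rose with CHIR, 2 fell with forskolin, and 2 fell and 1 rose with the combination, at an adjusted p under 0.05. Of all genes, 28.1% changed with CHIR (14.3% higher and 13.9% lower), 15.0% with forskolin (6.07% higher and 8.92% lower) and 29.0% with the combination (14.3% higher and 14.7% lower). The medians of the 7 differences were -0.20, -0.07 and -0.03 in that order, beside 0.01, 0.00 and 0.01 over all genes. These 3 comparisons share the control arrays. Without Control replicate 2 the count with CHIR was 2. The count with forskolin was 1 with arrays centred on their medians or quantile normalised, and 1 when any of 8 arrays was left out. The split over all genes with forskolin was 1009 higher and 1483 lower, and 1202 higher and 1167 lower with centred arrays.

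**Figure D1:**
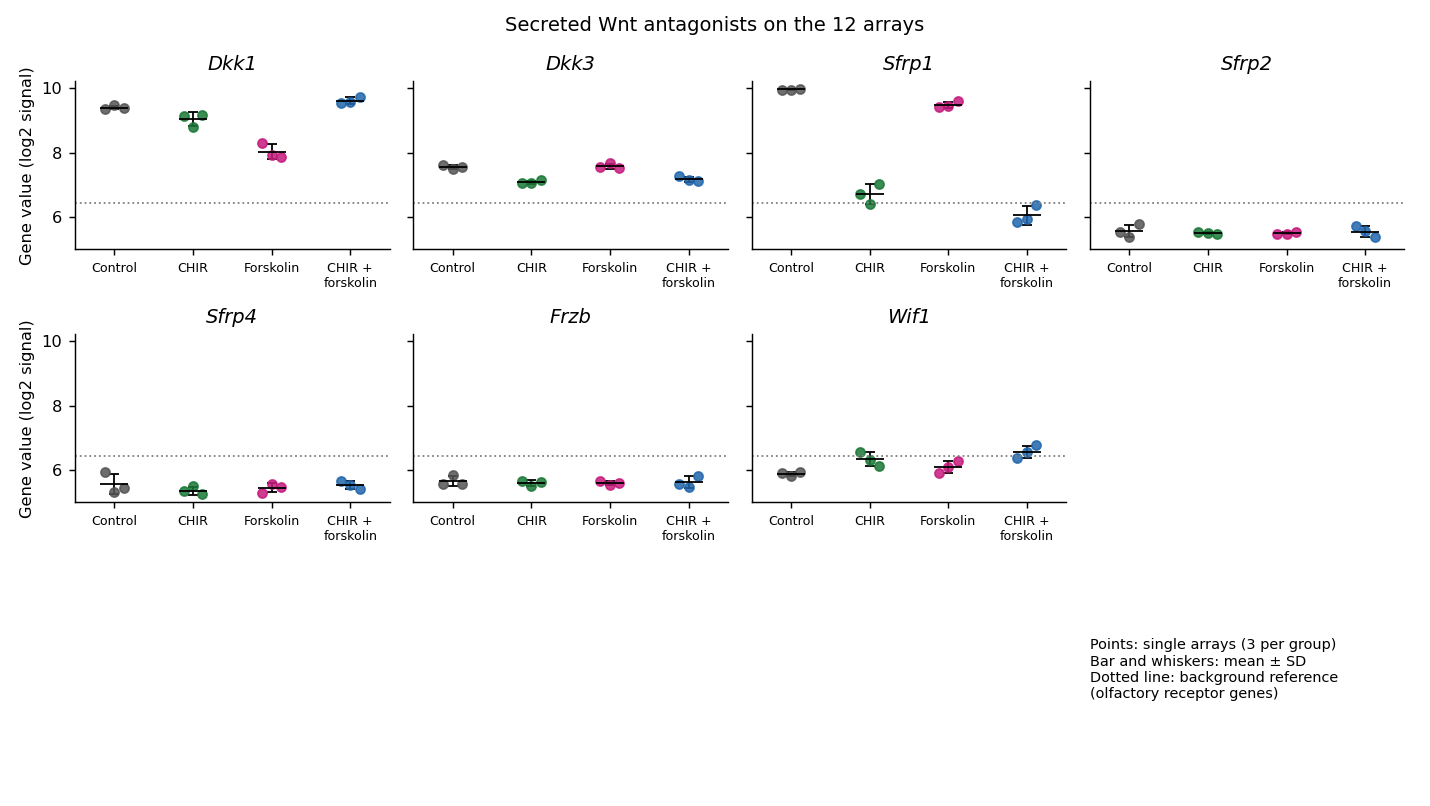
Gene values (log2 signal, vertical axis) of the 7 secreted Wnt antagonists in the 4 groups, with points for single arrays, bars for the mean and SD of 3 arrays, and a dotted line at the background reference of 6.43. Sfrp1 drops from about the 9.95 to 9.98 of the control arrays to between 6.43 and 7.03 with CHIR, and Dkk1 is lowest in the forskolin group.

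Sfrp1, which encodes a secreted Frizzled-related protein that binds Wnt through a cysteine-rich domain like that of Frizzled, was high in control and close to background wherever CHIR was given. The control arrays read 9.95, 9.95 and 9.98. The CHIR arrays read 6.72, 6.43 and 7.03, the forskolin arrays 9.43, 9.45 and 9.59, and the arrays of the combination 5.85, 5.94 and 6.38. No group overlapped another, and the order was control, forskolin, CHIR and the combination from high to low. With CHIR Sfrp1 fell by 3.23 on the log2 scale (SE 0.148, adjusted p = 1.32e-09), a 9.41-fold lower signal. With the combination it fell by 3.90 (SE 0.148, adjusted p = 2.88e-10), a 15.0-fold lower signal. The combined group's mean of 6.06 ± 0.29 (SD, n = 3) lay below the background reference, where log2 differences of this kind of array are compressed, so that fold may be understated. In these bulk samples, fewer cells making a transcript and less of it per cell cannot be told apart.

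Forskolin over 1 day changed Sfrp1 far less than CHIR over 2 days did. Against control the difference was -0.47 (SE 0.148, adjusted p = 0.0461), and this call was lost with centred arrays (-0.43, adjusted p = 0.0587), with quantile normalisation, and without 8 of the 12 arrays taken singly, namely each control array, each forskolin array, CHIR replicate 1 and CHIR plus forskolin replicate 2 (adjusted p 0.0040 to 0.127 over all alternatives). Added to CHIR, forskolin lowered Sfrp1 further by a difference of -0.67 (SE 0.148, adjusted p = 0.0071), a call lost when the brightest probe set stood for the gene (-0.27, adjusted p = 0.260, range over alternatives 0.0014 to 0.260). The interaction, the change that forskolin made in the presence of CHIR less the change it made alone, was -0.20 (95% confidence interval -0.65 to 0.25, adjusted p = 0.723) and did not pass. Both this interaction and the further fall rest on the combined group's mean below the background reference, where differences are compressed.

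All 3 probe sets of Sfrp1 fell with CHIR, by log2 differences from -3.48 to -3.07, and all 3 fell with the combination, from -4.20 to -3.34. With forskolin alone 1 of 3 passed, with differences from -0.52 to -0.38. When forskolin was added to CHIR 1 of 3 passed, with differences from -0.71 to -0.27. Of all probe sets, 8.44% were lower with CHIR, 9.64% with the combination and 3.51% with forskolin. The probe sets of Sfrp1 thus moved together in the large response and gave differences of similar size.

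Parietal endoderm markers were lower in both groups that received CHIR, as Sfrp1 was, but not with forskolin alone. Of the 12 measured, 11 fell and 0 (0 unadjusted) rose with CHIR, with a median difference of -0.68. With the combination 10 fell and 1 rose (median -0.44), and with forskolin 1 rose and 0 (0 unadjusted) fell (median 0.10). When forskolin was added to CHIR, 4 rose and 0 (0 unadjusted) fell (median 0.29), while Sfrp1 fell further. Of all genes, 28.1% changed with CHIR, 29.0% with the combination, 15.0% with forskolin and 13.8% when forskolin was added to CHIR. The summed linear signal of the parietal markers lay between 80235 and 83672 in control, 49865 and 53764 with CHIR, 54467 and 56181 with the combination, and 83100 and 87480 with forskolin. Of the 8 visceral markers, 4 rose and 2 (Cubn and Amn) fell with CHIR, and 2 rose and 4 fell with the combination. Their summed signal was 8073 to 9724 in control, 12073 to 13309 with CHIR and 5902 to 6135 with the combination. Of 5 trophoblast markers, 2 (Cdx2 and Gata3) rose and 1 fell with CHIR, from summed signals of 306 to 336 to 615 to 685. The part of these shifts in the fall of Sfrp1 was not tested. Fibroblasts are a known source of several of these antagonists. Of 7 fibroblast markers the same 6 (Col1a2, Col3a1, Dcn, Lum, Thy1 and Pdgfrb) lay at or below the background reference in each of the 4 groups. The remaining marker, Col1a1, lay above it in each, with means from 6.86 with the combination to 7.17 in control. The summed signals of the 7 were 414 to 484 on all 12 arrays.

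The genes whose 12 array values ran closest to those of Sfrp1, after each gene was centred on its own mean, were Lmo1, Nmur1 and Cubn. Their root mean square differences from Sfrp1 were 0.398, 0.426 and 0.432 on the log2 scale, against a range of 3.90 between the group means of Sfrp1, and their pattern is fixed by that choice. Lmo1 encodes a LIM-only transcriptional regulator, Nmur1 a receptor for neuromedin U, and Cubn an endocytic receptor. Cubn is also on the list of visceral markers. Cubn had group means of 11.69 ± 0.21 in control, 7.50 ± 0.07 with CHIR, 10.40 ± 0.10 with forskolin and 7.05 ± 0.12 with the combination (SD, n = 3).

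**Figure D2:**
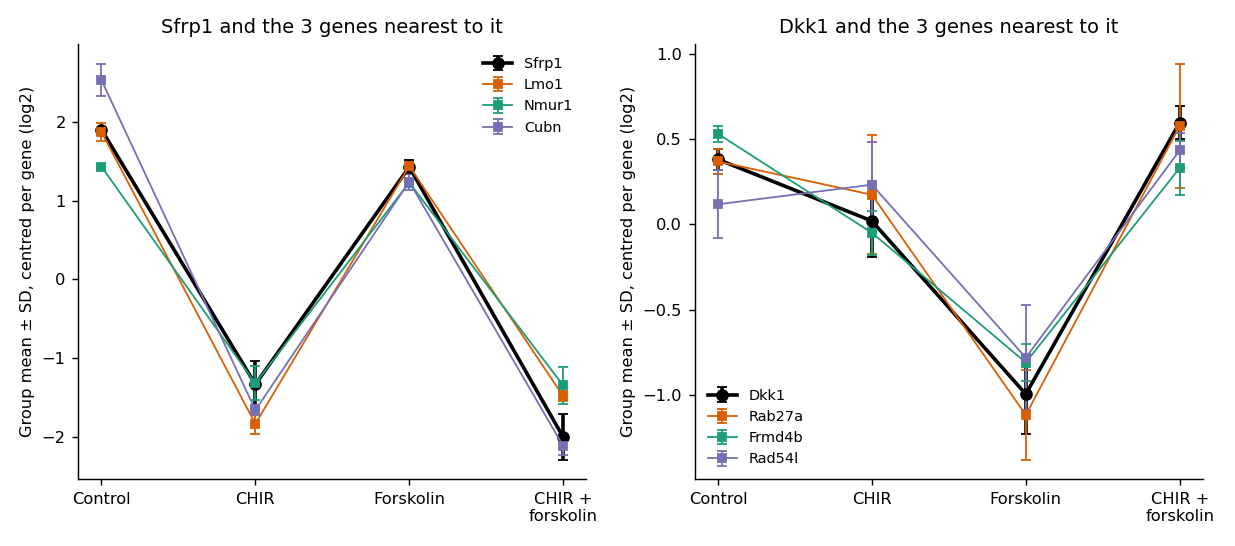
Group means with SD of 3 arrays, centred per gene (log2, vertical axis), for Sfrp1 on the left and Dkk1 on the right, each with the 3 genes nearest to it over the 12 arrays. Sfrp1, Lmo1, Nmur1 and Cubn are low in both groups that received CHIR, while Dkk1, Rab27a, Frmd4b and Rad54l are lowest with forskolin alone.

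Dkk1, which blocks the co-receptors Lrp5 and Lrp6, was lowered by forskolin alone and not when CHIR was present. The control arrays read 9.35, 9.47 and 9.38, and the forskolin arrays 8.29, 7.93 and 7.85. The CHIR arrays read 9.14, 8.79 and 9.17, and those of the combination 9.55, 9.57 and 9.73. Every group was separate from the others on single arrays, with the combination highest and forskolin alone lowest. With forskolin Dkk1 fell by 1.38 on the log2 scale (SE 0.122, adjusted p = 3.04e-06), a 2.60-fold lower signal. With CHIR it fell by 0.36 (SE 0.122, adjusted p = 0.0402), a call lost with the mean of the probe sets (-0.27, adjusted p = 0.0942) and without any single control array, CHIR replicate 2 or CHIR plus forskolin replicate 2 (adjusted p 0.0010 to 0.180 over all alternatives). The combination differed from control by 0.22 (95% confidence interval -0.05 to 0.48, adjusted p = 0.225) and did not pass, although its arrays lay above those of control.

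Set against each single compound, the combination had more Dkk1. It was higher than forskolin alone by 1.59 (SE 0.122, adjusted p = 2.81e-07), a 3.02-fold difference, and higher than CHIR alone by 0.58 (SE 0.122, adjusted p = 0.0054), a 1.49-fold difference. The interaction was 1.95 (SE 0.173, 95% confidence interval 1.58 to 2.33, adjusted p = 1.23e-05). Dkk1 was the only antagonist of the 7 to pass this interaction test, which 6.31% of all genes passed. Of its 5 probe sets, 4 passed the interaction upward, beside 0.683% of all probe sets, and the same number fell with forskolin, beside 3.51%. The 1 probe set that passed neither had a control mean of 5.57. With CHIR 1 of 5 probe sets fell, beside 8.44% of all probe sets. With the combination none passed (1 rose and 0 fell at an unadjusted limma p under 0.05).

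Visceral endoderm markers were also lower with forskolin, where 4 of 8 (Hnf4a, Amn, Cdh1 and Cubn) fell, beside 8.92% of all genes, and 0 (0 unadjusted) rose. Their summed signals were 5369 to 5671. With the combination the summed signals stayed near that level, at 5902 to 6135, while Dkk1 was at its highest. Single markers moved both ways between these 2 groups. Against forskolin alone, 4 were higher with the combination (Hnf4a, Cdh1, Lrp2 and Ihh), as Dkk1 was, and 2 were lower (Cubn and Amn). Of all genes, 30.0% changed in this comparison. Ihh lay below the background reference in both groups, at 5.76 with forskolin and 6.15 with the combination. The part of these markers in the response of Dkk1 was not tested.

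Rab27a, Frmd4b and Rad54l ran closest to Dkk1 over the 12 arrays, with root mean square differences of 0.216, 0.225 and 0.257 against a range of 1.59 between the group means of Dkk1. Rab27a encodes a small GTPase of vesicle secretion and Rad54l a protein of homologous recombination. Their differences with forskolin were -1.49, -1.34 and -0.90 and their interactions 1.89, 1.72 and 1.10. These values describe genes chosen for their likeness to Dkk1 on the same arrays, which fixes their direction.

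The bases ahead of the start of Dkk1 are shown because its response combined both compounds. They are the 250 bases before the start on the minus strand of GRCr8, at chr1:237798651-237798900. They come from a set of RefSeq windows that held 4 of the 7 antagonists (Dkk1, Sfrp2, Frzb and Wif1). Capitals mark matches on either strand to the TCF/LEF motifs CTTTGAA and CTTTGAT, to the full cAMP response element TGACGTCA and to its half-site TGACG, which the full element contains.
Dkk1: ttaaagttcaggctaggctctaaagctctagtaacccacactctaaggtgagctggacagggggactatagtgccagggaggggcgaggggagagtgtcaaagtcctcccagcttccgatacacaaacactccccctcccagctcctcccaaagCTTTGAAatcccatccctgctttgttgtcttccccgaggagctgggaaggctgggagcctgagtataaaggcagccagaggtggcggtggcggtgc
The Dkk1 window held CTTTGAA from base 96 to base 90 before the start, in the sense direction, and no other match. Of 33469 RefSeq windows of the same length, 4.7% held CTTTGAA, 7.6% held either TCF/LEF motif, 18.2% the half-site and 1.6% the full element. A match describes letters in the window and does not show binding.

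Dkk3, the divergent Dickkopf, was lower in both groups that received CHIR. The control arrays read 7.63, 7.49 and 7.56, and the forskolin arrays 7.54, 7.67 and 7.53. The CHIR arrays read 7.05, 7.06 and 7.14, and those of the combination 7.27, 7.16 and 7.11. Control and forskolin overlapped each other and lay wholly above the CHIR and combination arrays, which also overlapped each other. With CHIR Dkk3 fell by 0.47 on the log2 scale (SE 0.077, adjusted p = 0.00029), a 1.39-fold lower signal, and with the combination by 0.38 (SE 0.077, adjusted p = 0.0018). With forskolin the difference was 0.02 (95% confidence interval -0.14 to 0.19, adjusted p = 0.895), and the combination differed from CHIR by 0.09 (95% confidence interval -0.07 to 0.26, adjusted p = 0.530). Neither passed.

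Of the 8 probe sets of Dkk3, 5 fell with CHIR and 3 with the combination, beside 8.44% and 9.64% of all probe sets. All 8 differences were negative in both, from -0.99 to -0.16 and from -0.91 to -0.06. With forskolin none fell (2 at an unadjusted limma p under 0.05). Taking the mean of the probe sets in place of their median moved the forskolin difference to -0.17 (adjusted p = 0.0701) and gave Dkk3 an interaction of 0.34 (adjusted p = 0.0179), so its interaction passed or not with the way probe sets were summarised (adjusted p 0.0179 to 0.951 over all alternatives).

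Wif1, whose product binds Wnt proteins through a WIF domain, lay near background and was higher where CHIR was present. The control arrays read 5.91, 5.83 and 5.94, and the CHIR arrays 6.57, 6.33 and 6.13. The forskolin arrays read 5.92, 6.11 and 6.29, and those of the combination 6.39, 6.56 and 6.77. Both groups that received CHIR lay above control on every array, while forskolin overlapped with control and with CHIR. With CHIR Wif1 rose by 0.45 (SE 0.127, adjusted p = 0.0157), a 1.37-fold higher signal, and this call was lost without Control replicate 2 (0.42, adjusted p = 0.0537) or CHIR replicate 1 (0.34, adjusted p = 0.0785, range over alternatives 4.31e-05 to 0.0785). With the combination it rose by 0.68 (SE 0.127, adjusted p = 0.000899), a 1.60-fold higher signal. Only the combination's mean of 6.57 ± 0.19 (SD, n = 3) passed the background reference, so Wif1 counts as above it through the group where it is highest.

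In the order control, forskolin, CHIR and combination from low to high, no neighbours of Wif1 differed beyond the test. The forskolin difference from control was 0.22 (95% confidence interval -0.06 to 0.49, adjusted p = 0.328). It passed with the mean of the probe sets (0.30, adjusted p = 0.0223) and with the brightest probe set (0.54, adjusted p = 0.0090, range over alternatives 0.0090 to 0.697). The same summaries let 2 further pairs of neighbours pass, CHIR over forskolin with the mean (0.30, adjusted p = 0.0109) and the combination over CHIR with the brightest probe set (0.43, adjusted p = 0.0310). Single probe sets carried the same picture. Of 12, 8 rose with CHIR and 9 with the combination, beside 8.36% and 8.07% of all probe sets, and 2 rose with forskolin, beside 2.99%. None fell in these comparisons (0 at an unadjusted limma p under 0.05). In the probe set brightest over the 12 arrays the control arrays read 7.49, 7.14 and 7.29 and the CHIR arrays 7.64, 7.85 and 7.79. These arrays did not overlap, with a difference of 0.45, and lay above the background reference for genes. The gene value of Wif1 had a CHIR mean of 6.34, below that reference.

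The window ahead of Wif1 is shown beside that of Dkk1, since the other antagonists that changed had none in the table. It is the 250 bases before the start on the plus strand of GRCr8, at chr7:58433329-58433578, with capitals as above.
Wif1: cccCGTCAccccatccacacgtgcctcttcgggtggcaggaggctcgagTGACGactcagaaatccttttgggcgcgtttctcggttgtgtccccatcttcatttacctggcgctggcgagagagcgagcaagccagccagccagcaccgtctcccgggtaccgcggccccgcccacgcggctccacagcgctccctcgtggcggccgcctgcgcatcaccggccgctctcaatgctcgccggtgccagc
It held the half-site TGACG at bases 201 to 197 before the start in the sense direction and at bases 247 to 243 on the other strand, and no TCF/LEF match of these letters. The windows of Sfrp2 and Frzb held none of these motifs.

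**Figure D3:**
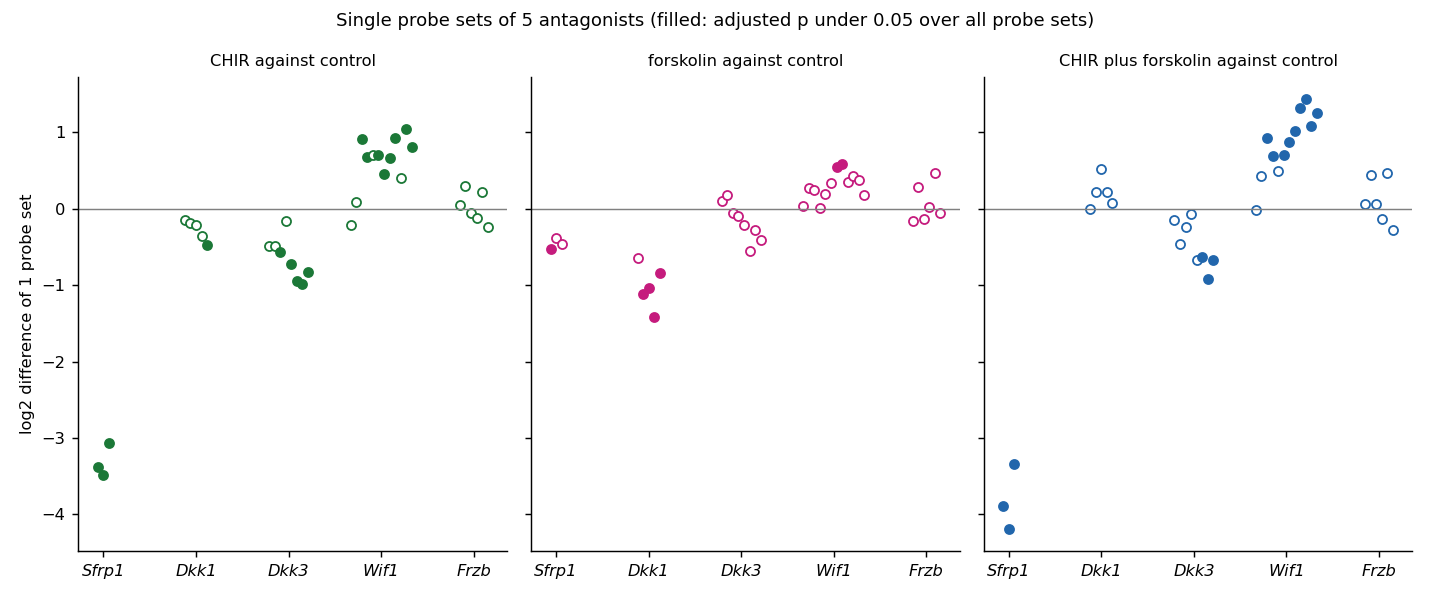
log2 differences (vertical axis) of single probe sets of Sfrp1, Dkk1, Dkk3, Wif1 and Frzb against control, in 1 panel for each treatment, with filled points at an adjusted p under 0.05 over all probe sets. The 3 probe sets of Sfrp1 lie between -3.48 and -3.07 with CHIR, and 8 of 12 Wif1 probe sets are filled above 0.

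Sfrp2, Sfrp4 and Frzb, the other Frizzled-related proteins, stayed below the background reference in all groups. Their group means lay between 5.51 and 5.58, 5.37 and 5.58, and 5.60 and 5.66. Groups overlapped on single arrays in every comparison, none of the 3 passed any of the 7 comparisons (0 also at an unadjusted limma p under 0.05), and at this signal a difference may go undetected. With CHIR the difference of Sfrp4 from control was -0.20 (95% confidence interval -0.50 to 0.09, adjusted p = 0.331), and it was -0.02 without Control replicate 1, which read 5.94 against 5.34 and 5.45 in the other control arrays (-0.32 to -0.02 over all arrays left out singly). The corresponding intervals were -0.28 to 0.17 for Sfrp2 and -0.28 to 0.17 for Frzb. In Frzb 1 brighter probe set read 7.23, 7.37 and 7.66 in control and 8.08, 7.71 and 7.86 with the combination. When that probe set stood for the gene, Frzb turned from -0.03 to 0.46 in the combination against control and passed (adjusted p = 0.0325, range over alternatives 0.0325 to 0.984). The other Frzb probe set above the reference had means of 7.10 in control and 6.82 with the combination. Its difference of -0.28 went the other way and did not pass.

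**Figure D4:**
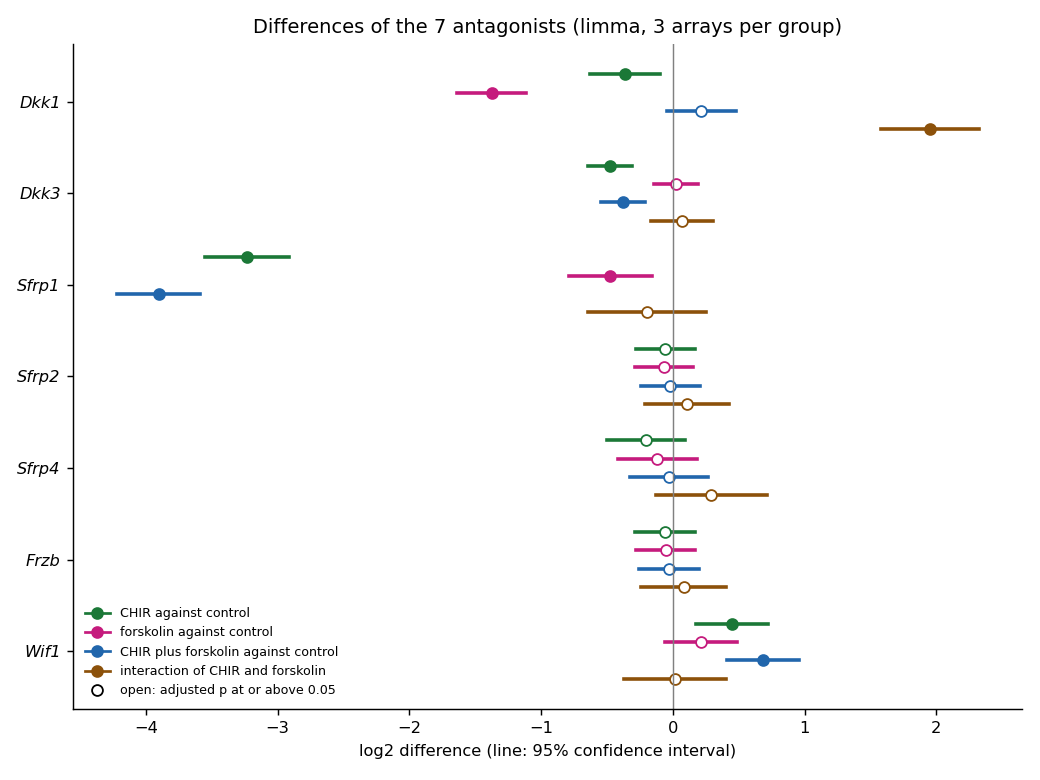
log2 differences (horizontal axis) with 95% confidence intervals for the 7 antagonists in 3 comparisons with control and in the interaction, with filled points at an adjusted p under 0.05. The intervals of Sfrp1 with CHIR and with the combination lie far below 0, and that of the Dkk1 interaction lies from 1.58 to 2.33.

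The remaining comparisons set the treatments against each other. Adding forskolin to CHIR changed Dkk1 and Sfrp1, 2 of the 7, beside 13.8% of all genes. Adding CHIR to forskolin changed 4 of the 7, beside 30.0%. In it Dkk1 and Wif1 were higher, by 1.59 and 0.47 (adjusted p = 0.0120 for Wif1, lost without CHIR plus forskolin replicate 3 or Forskolin replicate 1). Sfrp1 and Dkk3 were lower, by differences of -3.43 and -0.40 (adjusted p = 1.07e-09 and 0.0011). CHIR against forskolin differed for 3 of the 7, beside 35.2% of all genes, with Dkk1 higher (1.01) and Sfrp1 (-2.76) and Dkk3 (-0.50) lower under CHIR. The exposures there were 2 days and 1 day, so compound and length cannot be told apart.

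Counts for other genes of the pathway cover whole lists, whereas the genes named from a list were picked for their large changes. Among 14 measured extracellular antagonists and partners beyond the 7, 2 rose and 1 fell with CHIR, 2 rose and 0 (0 unadjusted) fell with forskolin, and 2 rose and 1 fell with the combination. Of all genes, 28.1%, 15.0% and 29.0% changed in these 3 comparisons, shares that stand beside the counts of each further list below as well. Rnf43, a ligase that removes Frizzled from the surface, rose in all 3 (1.88, 0.76 and 1.89). Igfbp4, an IGF-binding protein that can also bind Frizzled, fell with CHIR (-1.29) and with the combination (-0.32). Dkkl1, a Dickkopf-like gene, rose with CHIR (0.57) and with forskolin (0.63), and Kremen1, a partner of Dkk1, rose with the combination (0.90). The medians of the 14 were 0.13, 0.15 and 0.05.

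Among 25 ligands, secretion factors and R-spondins, 1 rose and 3 fell with CHIR, 1 rose and 5 fell with forskolin, and 3 rose and 3 fell with the combination, with medians of -0.07, -0.06 and -0.01. Rspo3, which amplifies Wnt signalling through Lgr receptors, fell with CHIR (-2.94), forskolin (-0.55) and the combination (-1.99). Wnt7b fell in the same 3 comparisons (-2.23, -0.66 and -1.99), and so did Porcn, the acyltransferase that lipidates Wnt proteins (-1.05, -0.90 and -1.43). Wnt4 rose with CHIR (0.69), and Rspo4 rose with forskolin alone (1.51).

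Among 17 receptors and co-receptors, 5 rose and 5 fell with CHIR, 0 rose (2 unadjusted) and 4 fell with forskolin, and 3 rose and 8 fell with the combination, with medians of -0.03, -0.10 and -0.19. Fzd6 rose with CHIR (2.50) and with the combination (1.57) and fell with forskolin (-1.002), whereas Fzd4 fell in all 3 (-2.05, -1.11 and -1.99). Among 21 targets of Wnt/beta-catenin signalling, which do not include Dkk1 here, 9 rose and 3 fell with CHIR, 4 rose and 4 fell with forskolin, and 6 rose and 3 fell with the combination, with medians of 0.09, -0.01 and 0.04. Of 14 cAMP/CREB targets, 2 rose and 8 fell with CHIR, 9 rose and 2 fell with forskolin, and 7 rose and 2 fell with the combination, with medians of -0.37, 0.34 and 0.17.

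**Figure D5:**
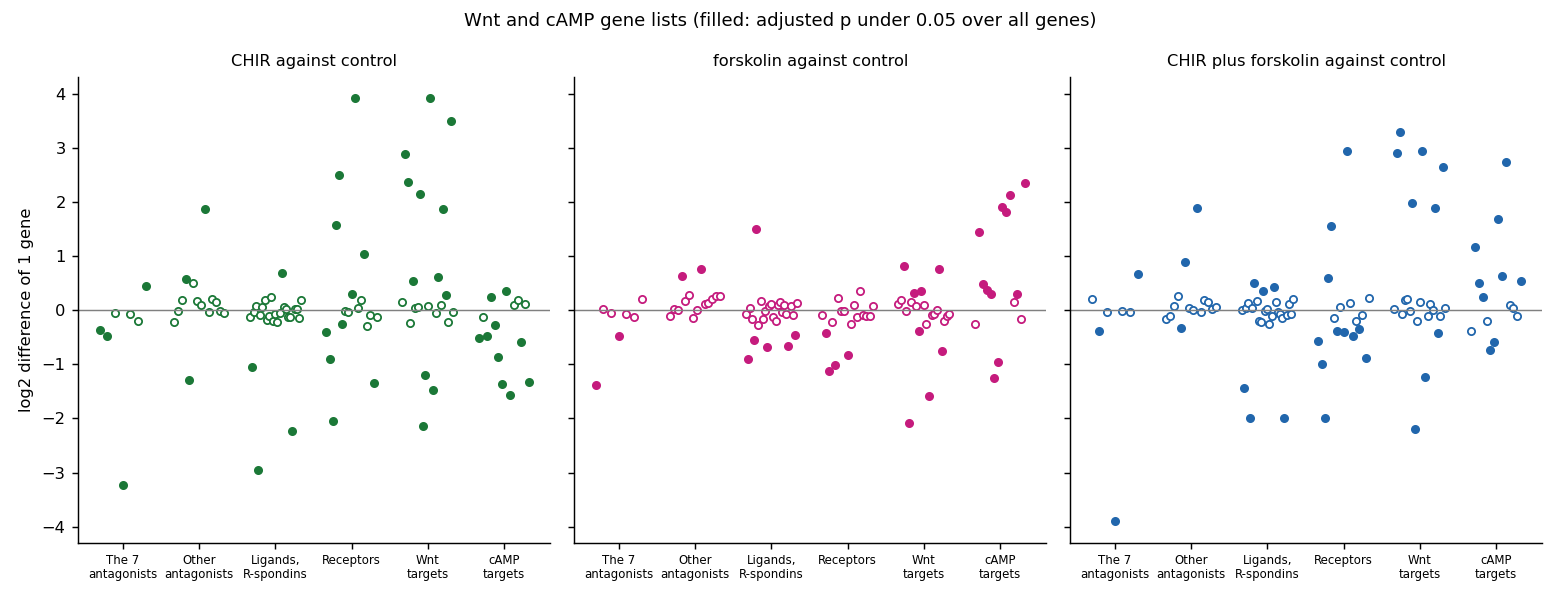
log2 differences (vertical axis) of single genes against control for the 7 antagonists, 4 other Wnt lists and the cAMP targets, in 1 panel for each treatment, with filled points at an adjusted p under 0.05 over all genes. Sfrp1 is the lowest point of the first column with CHIR (-3.23) and with the combination (-3.90), and Dkk1 is the lowest with forskolin (-1.38).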

How the data were processed

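The authors deposited log2 signals, 1 per probe set and array, after their own summary and normalisation; the submitters' processing notes name RMA and Partek, with versions, options and build not given in the sources used here. RMA values are compressed near background. The log base was read from how far the values reach, and no detection call was used. The platform's probe annotation, of 2010, gave 172924 probe sets 1 symbol and 1661 several, which were left out, and 36610 were unnamed here. Older symbols (3659 of 16633) were updated through the RefSeq gene table of GRCr8, used for names.

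The gene value was the median over probe sets. A limma fit (3.58.1, R 4.3.3) had 4 group means over 12 arrays and eBayes without trend. Tests are two-sided, Benjamini-Hochberg adjusted over 16633 genes (or 211195 probe sets) in each of 7 comparisons, with a threshold of 0.05. No filter on dim genes was set in the fit. Precision is limited by 3 arrays per group. The fit was tested on simulated data. Figures and tables used Python 3.11.15, pandas 2.3.3 and matplotlib 3.10.9.

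The 7 members, the gene lists and the tests were chosen with earlier results of these data known. Genes named beyond the members are up to 3 rises and 3 falls past the threshold per list in the comparisons with control, Axin2 and Crem as checks of the treatments, and the 3 genes with the smallest root mean square difference over 12 arrays from a member whose group means span at least 1 log2 unit. Alternatives were another summary of probe sets, centring, quantile normalisation, trend, a filter on dim genes, the compared groups alone, a replicate block and leaving out each array.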

Additional observations from a re-analysis of the deposited data

Results flagged for a closer look

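The response of Dkk1 to forskolin differed with and without CHIR by an interaction test. Forskolin changed Dkk1 by a log2 difference of -1.38 without CHIR and by 0.58 with CHIR, and the difference of these effects was 1.95 (limma adjusted p = 1.23e-05, range over alternatives 4.46e-06 to 8.4e-05). Each forskolin array lay below each control array, and each array of the combination lay above each CHIR array. Groups of 3 arrays were not tested for single outlying arrays.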

How the results depend on the processing

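Counts of all genes changed stayed within 1.5 times their value under each alternative run, except the interaction, which gave 1870 genes with the mean of the probe sets and 630 with the brightest, against 1050. Leaving out 1 array gave 838 to 1007 there. With arrays centred on their medians the forskolin comparison split into 1202 higher and 1167 lower, against 1009 and 1483. For the antagonists, the count with forskolin was 1 after centring and after quantile normalisation and 1 to 2 when an array was left out, since the call of Sfrp1 was lost. The count with CHIR was 2 to 4 when an array was left out, with Dkk1 and Wif1 lost without Control replicate 2, and the interaction count was 2 with the mean of the probe sets, where Dkk3 passed. Frzb turned to 0.46 in the combination against control with the brightest probe set. The cause of these changes was not tested. Apart from leaving out an array, 329 of 364 single values of antagonists kept their direction and side of the threshold, 4 lost the call, 5 gained it, 1 reversed, and 25 changed sign while passing in neither setting. With an array left out, 541 of 588 kept both, 17 lost the call and 30 changed sign without a call.

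With the replicate block, 4581 genes changed with CHIR, 2401 with forskolin and 978 in the interaction, and no call on an antagonist changed. Of 18 pairs of arrays with the same number, 1 had deviations from the group means that correlated over 0.1 (range -0.20 to 0.16), and 4 of 12 arrays correlated best with an array of their own number, so the numbers were not taken as pairs. Sfrp2, Sfrp4 and Frzb gave no value under the filter on dim genes, since their signal lay below the reference.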

Other observations

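The interaction of CHIR and forskolin also took in Wnt ligands and their helpers, named here after their values were seen. Of all genes, 6.31% passed this interaction in either direction. Of the 25 measured ligands, secretion factors and R-spondins, 5 had a higher effect of forskolin with CHIR than without, namely Rspo3 (1.50), Wnt7b (0.90), Wnt11 (0.79), the Wnt transporter gene Wls (0.70) and Wnt9a (0.54), and Rspo4 had a lower one (-1.38). Rspo4 had a mean of 7.24 ± 0.11 in control, 8.74 ± 0.10 with forskolin and 7.28 ± 0.14 with the combination (SD, n = 3). Rspo3 had 8.98 ± 0.06 in control, 6.04 ± 0.15 with CHIR and 6.99 ± 0.15 with the combination, the CHIR mean lying below the background reference. Wnt7b lay below that reference in both groups that received CHIR, at 5.84 with CHIR and 6.08 with the combination. Wnt9a lay below it in all 4 groups. At such signals a fall with forskolin may go undetected, which limits how their interactions can be read.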
